A study of Mus musculus with 32 samples.

Results

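Astrocyte marker and transporter genes are described here in the striatum of a mouse model of Huntington's disease after inhibition of the chaperone HSP90. The set comprised 10 genes (Aldh1l1, Aldoc, Aqp4, Atp1b2, Gfap, Gja1, Ntsr2, S100b, Slc1a2 and Slc1a3) of the 18193 genes that the array annotation names. They were represented by 32 of its 45037 probe sets, namely all probe sets that the platform annotation assigned to exactly that symbol. 1 further probe set, assigned to Slc1a2 together with a predicted gene, was left out. Total RNA from the striatum was hybridised to Affymetrix mouse expression arrays in 4 groups of male mice aged 12 weeks, all on a CBA by C57Bl/6 background. They were R6/2 mice given HSP990 (8 arrays), R6/2 mice given vehicle (7 arrays), WT mice given HSP990 (10 arrays) and WT mice given vehicle (7 arrays). HSP990 is an oral HSP90 inhibitor, given by gavage at 12 mg/kg and left for 4 h, and the vehicle was its formulation alone by the same route. R6/2 mice carry a transgene with the first exon of the human huntingtin gene and an expanded CAG repeat, driven by the human huntingtin promoter in many cell types. The protein fragment is therefore not restricted to astrocytes or to neurons. No label names the animal behind an array, so p-values measure the spread between arrays.

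Astrocytes clear glutamate from the synaptic cleft, buffer extracellular potassium and water, couple to each other through gap junctions and pass metabolites to neurons. Slc1a2 encodes GLT-1, the main glutamate transporter of the adult forebrain, and Slc1a3 encodes GLAST, the related astrocyte transporter. Atp1b2 encodes a beta subunit of the sodium pump that is also known as an adhesion molecule of glia, Aqp4 the water channel of perivascular endfeet, and Gja1 connexin 43, the main gap junction protein of astrocytes. Aldoc encodes a brain isoform of the glycolytic enzyme aldolase, Aldh1l1 an enzyme of folate metabolism used as a pan-astrocyte marker, and Ntsr2 a neurotensin receptor found in astrocytes. Gfap encodes the intermediate filament that typically increases in reactive astrocytes, and S100b a calcium-binding protein that oligodendrocyte lineage cells also make. Loss of GLT-1 and of astrocytic potassium handling has been described in Huntington's disease models.

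Promoter sequences from RefSeq (GRCm38.p6) were used for 8 of the 10 genes, and the stretch upstream of the outermost annotated start was kept for 7. No entry was found for Atp1b2, and Aqp4 was not searched because entries on its chromosome were left out. The heat shock element that HSP90 inhibition is known to engage was searched as the units GAA, TTC and GAA, each separated from the next by NN, on both strands of the 250 bases before each start. None of the 8 genes held it in these windows, and 0.466% of 32851 promoters of the same length did. The glucocorticoid element, AGAACA and TGTTCT separated by NNN, was in none of them either (0.00913% of promoters), its single unit TGTTCT was in 1 (16.1% of promoters), and the STAT element TTCNNNGAA was in 3 (7.02% of promoters). The counts are of the 8 genes, which had 9 windows, whereas the shares are of single promoters. A match describes letters and is no evidence of binding, and a window without a match says nothing of the factor. The promoters of 3 genes that differed between genotypes are printed 5′ to 3′, with matches in capitals: Slc1a3 (chr15:8710808-8711057, minus strand), Ntsr2 (chr12:16653220-16653442, plus strand) and Aldh1l1 (chr6:90550543-90550767, plus strand). In Slc1a3 the capitals mark a STAT element and, nearer the start, the single glucocorticoid unit on the other strand. In Ntsr2 they mark a STAT element, and Aldh1l1 held no match. The third gene with a STAT element was Aldoc, at a start inside the gene that is not shown.
Slc1a3: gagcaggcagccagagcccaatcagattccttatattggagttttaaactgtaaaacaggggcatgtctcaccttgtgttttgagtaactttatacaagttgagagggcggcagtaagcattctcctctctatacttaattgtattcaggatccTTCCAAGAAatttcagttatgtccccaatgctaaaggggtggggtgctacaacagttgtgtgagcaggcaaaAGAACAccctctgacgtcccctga
Ntsr2: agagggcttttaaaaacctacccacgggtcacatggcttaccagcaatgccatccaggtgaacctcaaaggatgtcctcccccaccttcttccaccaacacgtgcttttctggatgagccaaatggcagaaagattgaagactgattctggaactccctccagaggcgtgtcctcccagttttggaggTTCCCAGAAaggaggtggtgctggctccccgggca
Aldh1l1: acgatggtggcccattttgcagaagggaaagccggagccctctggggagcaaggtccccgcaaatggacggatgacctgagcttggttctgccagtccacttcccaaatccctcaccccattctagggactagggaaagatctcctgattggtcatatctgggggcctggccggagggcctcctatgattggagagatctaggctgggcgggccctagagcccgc

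The arrays were of like brightness, with medians between 5.73 and 5.78 on the log2 scale, and no pair held identical values. The drug's label was borne out by the chaperone genes: Hspb1, a small heat shock protein, had 10.36, 10.84 and 10.92 (lowest, median and highest log2 value) in R6/2 mice on HSP990, against 7.82, 8.14 and 8.29 in R6/2 mice on vehicle. The same gene had 10.73, 10.99 and 11.71 in WT mice on HSP990, against 8.13, 8.34 and 8.56 in WT mice on vehicle, so that treated and vehicle arrays did not overlap in either genotype. Mouse Htt did not pass the test between genotypes on HSP990 or on vehicle, and whether its probe set reads the transgene was not tested. Markers of medium spiny neurons, the principal cells of the striatum, were lower in R6/2 mice for 17 of 18 genes on HSP990 and for 17 of 18 on vehicle. Over all genes, 10.5% were lower on HSP990 and 8.71% on vehicle. 2 arrays showed strong 3′ bias, measured as the difference between the 3′ and 5′ control probe sets of Gapdh: R6/2 on HSP990 replicate 5, at 5.01, and WT on vehicle replicate 5, at 2.23. Probe sets that read far from the 3′ end of a transcript lose signal on such arrays.

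All 10 genes were measured above the array's median probe set (5.77 on the log2 scale) by at least 1 probe set. That shows signal in this tissue and not which cells it came from. Of the 32 probe sets, 23 lay above that median and 9 below it. Gfap was the gene least clear of it: its brightest probe set averaged 6.07, and its other 2 lay below the median. Every gene is described by its brightest probe set unless another is named, and levels are compared between groups within a probe set only. Values are log2 as deposited, changes are log2 differences ± their standard error, and calls were made in limma where the p adjusted over all 45037 probe sets (Benjamini-Hochberg) was under 0.05.

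**Figure D1:**
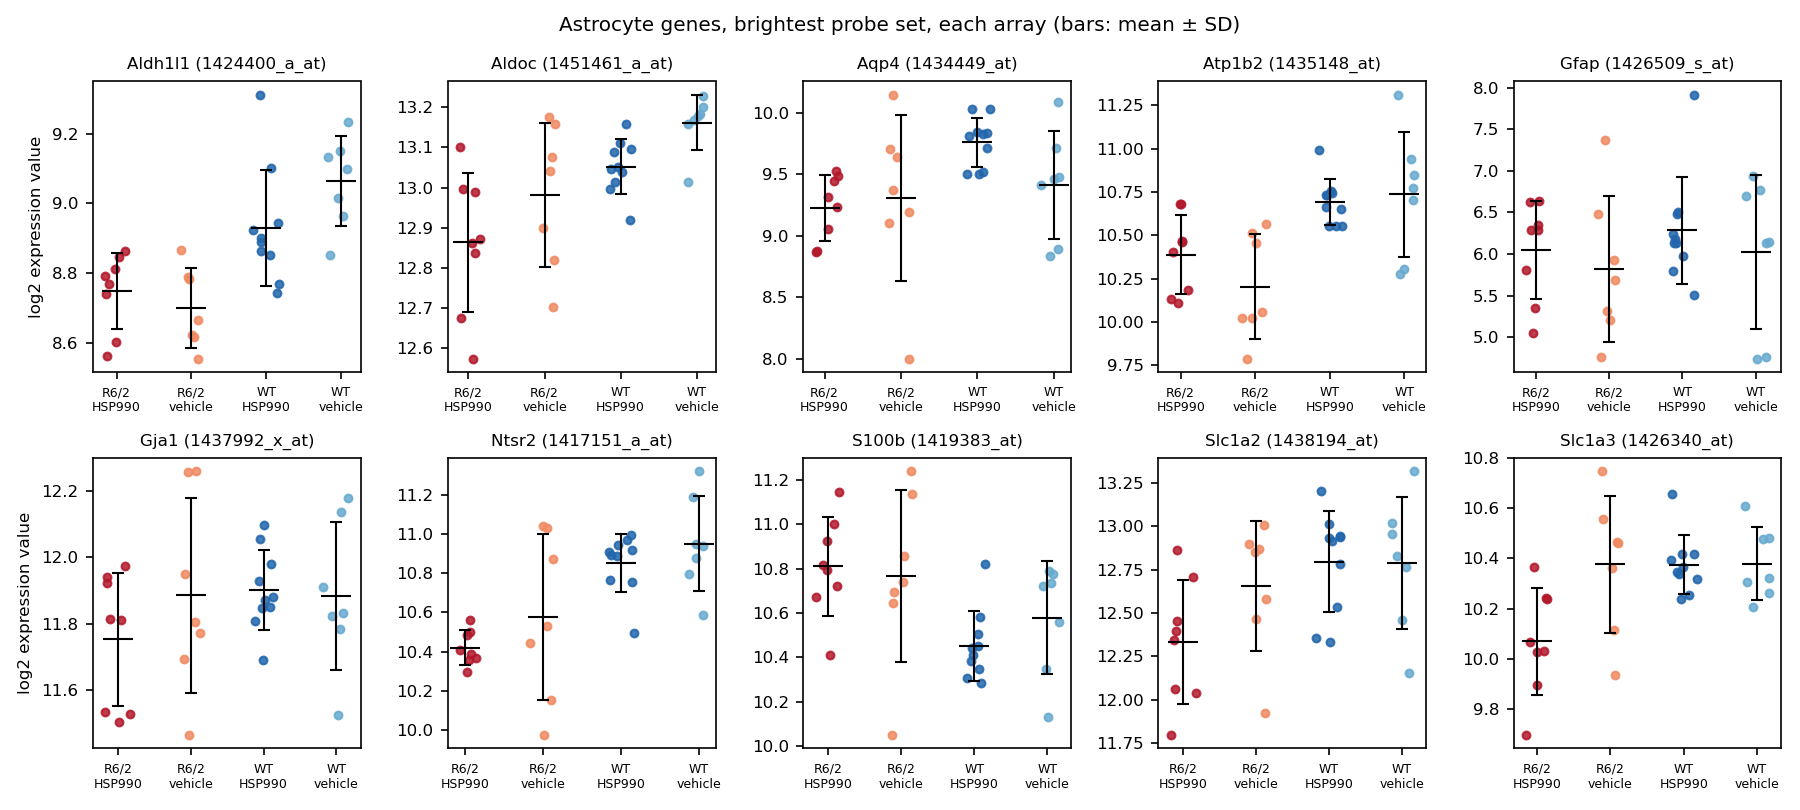
Log2 expression value (vertical axis) of the brightest probe set of each of the 10 genes on every array, by group (horizontal axis); points are arrays and bars are the mean ± SD. Ntsr2 in R6/2 mice on HSP990 lies between 10.30 and 10.56 and overlaps WT mice on HSP990 through a single WT array at 10.49.

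R6/2 mice had lower levels of several astrocyte genes than WT mice, by at most 1.45-fold in any brightest probe set. On HSP990, 6 of the 10 genes fell (Slc1a2, Slc1a3, Aqp4, Ntsr2, Aldoc and Aldh1l1) and S100b rose. On vehicle, 3 of the 10 fell (Atp1b2, Ntsr2 and Aldh1l1) and none rose. Gfap and Gja1 did not pass the test by their brightest probe set in either comparison. In bulk tissue, fewer cells of a type and less RNA per cell cannot be told apart.

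The counts stand against a background in which many genes differed between genotypes. On HSP990, 32.3% of all genes passed (21.7% higher and 10.5% lower), so 7 of 10 in either direction, and 6 of 10 lower, were larger shares than over all genes. That did not hold for calls in either direction once the 3′ bias of the arrays or the mean level of myelin markers was a covariate, where 2 of 10 passed in each fit, against 29.6% of all genes with 3′ bias and 26.8% with the myelin mean. On vehicle, 19.4% of all genes passed (10.7% higher and 8.71% lower), against 3 of 10 astrocyte genes, all lower. The median change of the 10 genes was -0.27 on HSP990, where that of all genes was 0.04, and -0.15 on vehicle, where that of all genes was -0.01. 9 of the 10 changes lay below 0 on HSP990 and 8 of 10 on vehicle, called or not. Over all probe sets of the 10 genes, 15 of 32 fell and 1 rose on HSP990 (11.5% lower and 15.8% higher over all probe sets), and 6 of 32 fell and none rose on vehicle (7.03% lower and 8.06% higher). No probe set had R6/2 and WT arrays that were fully apart, on HSP990 (3.36% of genes apart and lower, 6.04% apart and higher) or on vehicle (2.37% and 1.53%). The set was proposed with results of these data in view, so these shares describe it and are no test of it.

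**Figure D2:**
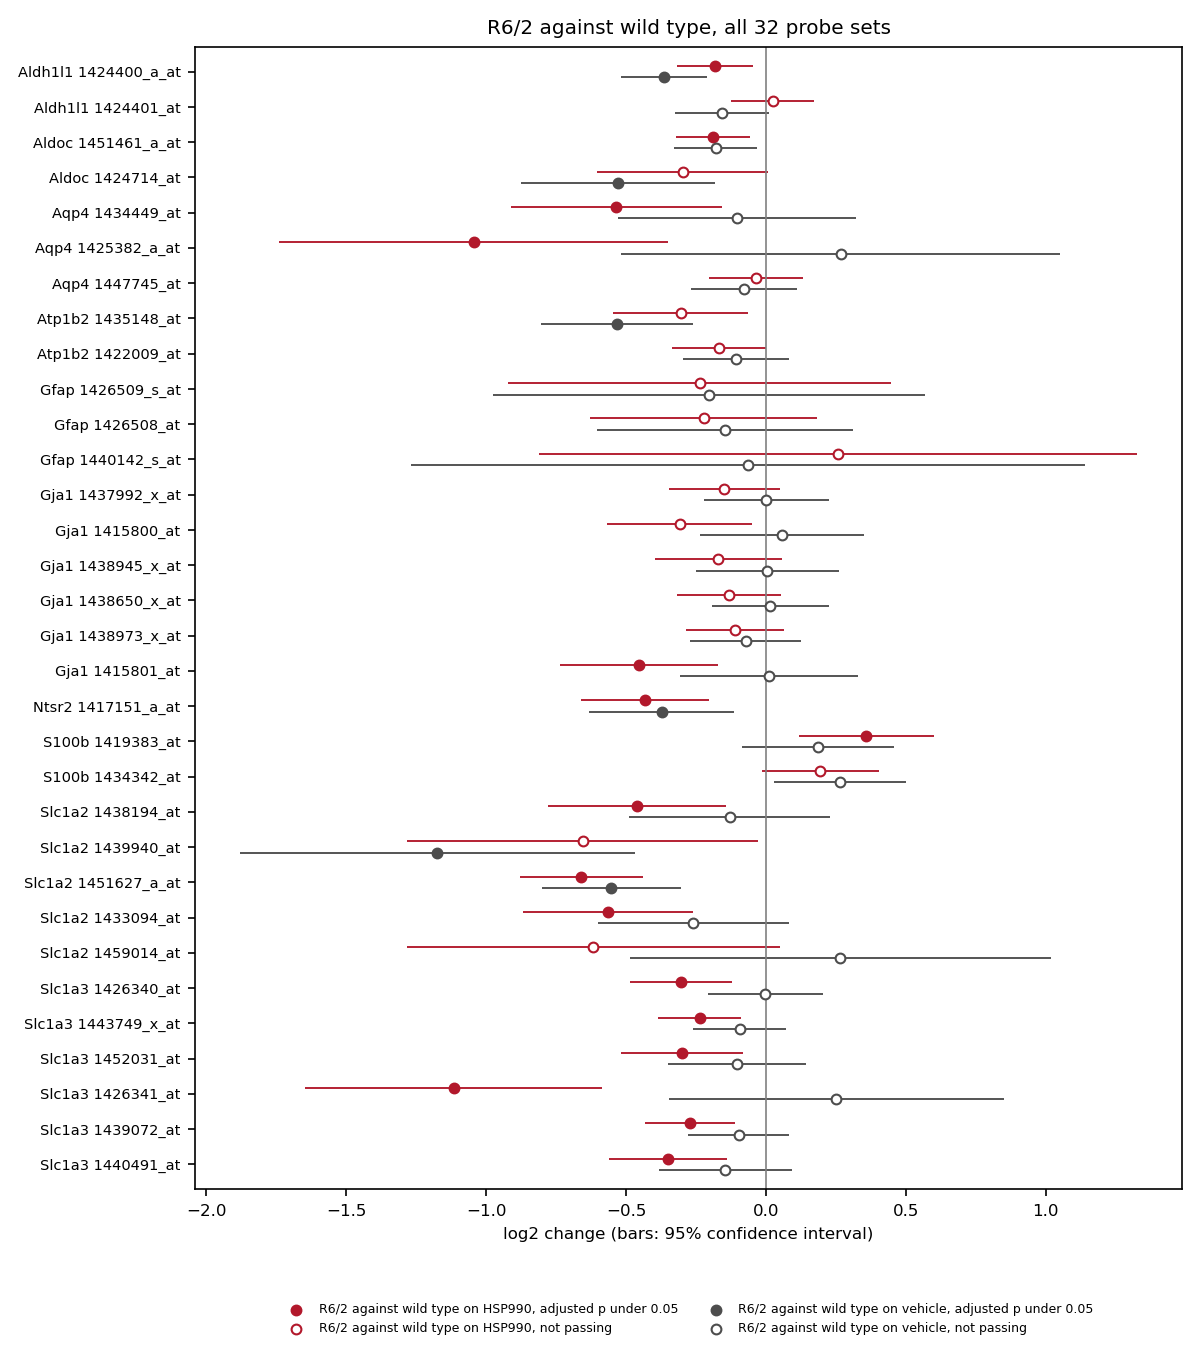
Log2 change between R6/2 and WT mice (horizontal axis) for all 32 probe sets of the 10 genes (rows), on HSP990 (red) and on vehicle (grey); bars are 95% confidence intervals and filled points passed an adjusted p of 0.05. Most points lie left of 0, all 6 probe sets of Slc1a3 are filled on HSP990 and none of them on vehicle, and both probe sets of S100b lie right of 0.

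The GLT-1 gene Slc1a2 was lower in R6/2 mice on both treatments by 3 of its 5 probe sets on HSP990 and by 2 on vehicle, 1451627_a_at being in both. Its brightest probe set (1438194_at) had 11.80, 12.37 and 12.87 in R6/2 mice on HSP990, against 12.33, 12.92 and 13.20 in WT mice on HSP990, and 11.93, 12.85 and 13.01 in R6/2 mice on vehicle, against 12.16, 12.83 and 13.32 in WT mice on vehicle. On HSP990, 7 of 8 R6/2 arrays lay below the WT mean; on vehicle only 3 of 7 did, and the ranges nearly coincided. The changes were -0.46 ± 0.16 on HSP990 (adjusted p = 0.0261, 1.38-fold lower) and -0.13 ± 0.18 on vehicle (adjusted p = 0.698). Probe set 1451627_a_at gave the clearest difference of all 32 probe sets. It had 6.49, 6.67 and 7.13 in R6/2 mice on HSP990, against 7.00, 7.39 and 7.76 in WT mice on HSP990, and 6.46, 6.64 and 7.33 in R6/2 mice on vehicle, against 7.14, 7.22 and 7.50 in WT mice on vehicle. On vehicle a single R6/2 array, replicate 7, reached into the WT range, and the next highest lay at 6.75. This probe set fell by 0.66 ± 0.11 on HSP990 (adjusted p = 1.6e-05, 1.58-fold lower) and by 0.55 ± 0.12 on vehicle (adjusted p = 0.00162, 1.47-fold lower).

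The other Slc1a2 probe sets differed in size and in which comparison they passed. Probe set 1439940_at had 8.68, 9.22 and 10.33 in R6/2 mice on HSP990, against 8.93, 9.99 and 11.04 in WT mice on HSP990, and 7.29, 8.87 and 9.81 in R6/2 mice on vehicle, against 8.67, 10.05 and 10.48 in WT mice on vehicle. All 7 R6/2 arrays on vehicle lay below the WT mean, and the change on vehicle was -1.17 ± 0.35 (adjusted p = 0.018, 2.26-fold lower). On HSP990 it was -0.66 ± 0.31 (adjusted p = 0.119). Probe set 1433094_at fell by 0.57 ± 0.15 on HSP990 (adjusted p = 0.00401) and had a change of -0.26 ± 0.17 on vehicle (adjusted p = 0.338). Within groups, 1438194_at and 1439940_at even ran against each other (r = -0.485, rho = -0.443, permutation p = 0.00816 and 0.0165, adjusted p = 0.0127 for r, -0.467 without the 2 arrays farthest from the median), while 1438194_at and 1451627_a_at ran together (r = 0.620, rho = 0.651, permutation p = 0.00028 and 0.00011, adjusted p = 0.000875, 0.691 without the 2 farthest). These were 2 of 25 probe set pairs compared within the genes. Which transcripts each probe set reads was not examined.

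The GLAST gene Slc1a3 fell in R6/2 mice on HSP990 by all 6 of its probe sets and on vehicle by none. The brightest (1426340_at) had 9.70, 10.05 and 10.36 in R6/2 mice on HSP990, against 10.24, 10.36 and 10.66 in WT mice on HSP990. All 8 R6/2 arrays lay below the WT mean, and the ranges overlapped. The same probe set had 9.94, 10.46 and 10.75 in R6/2 mice on vehicle, against 10.20, 10.32 and 10.61 in WT mice on vehicle, where the R6/2 range enclosed the WT range. The changes were -0.31 ± 0.09 on HSP990 (adjusted p = 0.00945, 1.24-fold lower) and -0.0025 ± 0.10 on vehicle (adjusted p = 0.992, 95% confidence interval -0.21 to 0.20). Over the 6 probe sets the change on HSP990 ranged from -1.12 ± 0.26 (1426341_at, adjusted p = 0.00129) to -0.24 ± 0.07 (1443749_x_at, adjusted p = 0.0138). The difference of the genotype effect between treatments was itself tested, and Slc1a3 did not pass (-0.30 ± 0.13, unadjusted p = 0.0317, adjusted p = 0.342).

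Among the genes of ion, water and gap junction function, Atp1b2 fell on vehicle and Aqp4 on HSP990. Atp1b2 had 10.11, 10.43 and 10.68 in R6/2 mice on HSP990, against 10.55, 10.70 and 10.99 in WT mice on HSP990, and 9.79, 10.06 and 10.56 in R6/2 mice on vehicle, against 10.28, 10.77 and 11.31 in WT mice on vehicle. Every R6/2 array lay below the WT mean on both treatments, 8 of 8 on HSP990 and 7 of 7 on vehicle, and the ranges overlapped. The change was -0.30 ± 0.12 on HSP990 (adjusted p = 0.0533) and -0.53 ± 0.13 on vehicle (adjusted p = 0.0052, 1.45-fold lower). Aqp4 had 8.87, 9.27 and 9.53 in R6/2 mice on HSP990, against 9.50, 9.82 and 10.03 in WT mice on HSP990, and 8.00, 9.37 and 10.14 in R6/2 mice on vehicle, against 8.83, 9.46 and 10.08 in WT mice on vehicle. On HSP990 all 8 R6/2 arrays lay below the WT mean and the ranges barely touched, whereas the vehicle groups were widely spread (SD 0.67 in R6/2 and 0.44 in WT mice). The change was -0.53 ± 0.19 on HSP990 (adjusted p = 0.029, 1.45-fold lower) and -0.10 ± 0.21 on vehicle (adjusted p = 0.805). A second probe set of Aqp4, 1425382_a_at, fell by 1.05 ± 0.34 on HSP990 (adjusted p = 0.0201). On vehicle its change was 0.27 ± 0.38 (adjusted p = 0.716), and its signal tracked the 3′ bias of the arrays, as given below. The dim probe set 1447745_at passed on neither treatment.

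Gja1 passed in neither comparison by any of its 4 bright probe sets. The brightest had 11.50, 11.81 and 11.97 in R6/2 mice on HSP990, against 11.69, 11.87 and 12.10 in WT mice on HSP990, and 11.46, 11.80 and 12.26 in R6/2 mice on vehicle, against 11.52, 11.83 and 12.18 in WT mice on vehicle. The groups overlapped throughout, with changes of -0.15 ± 0.10 on HSP990 (adjusted p = 0.293) and 0.0012 ± 0.11 on vehicle (adjusted p = 0.996). The 95% confidence intervals, -0.35 to 0.05 and -0.22 to 0.22, covered 0 on both treatments. A dim probe set, 1415801_at, fell by 0.45 ± 0.14 on HSP990 (adjusted p = 0.0129) at a level below the array median. Its signal fell with the 3′ bias of the arrays within groups (r = -0.580, rho = -0.664, permutation p = 9e-05 and 3e-05, adjusted p = 0.00115 over 64 relations, -0.689 without the 2 arrays farthest from the median), and with that bias as a covariate the change was -0.26 ± 0.13 (adjusted p = 0.143). Taken as the mean of its probe sets, Gja1 passed on HSP990 (-0.22, adjusted p = 0.0447).

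The metabolic enzymes were slightly lower in R6/2 mice. Aldh1l1 had 8.56, 8.78 and 8.86 in R6/2 mice on HSP990, against 8.74, 8.89 and 9.31 in WT mice on HSP990, and 8.55, 8.67 and 8.87 in R6/2 mice on vehicle, against 8.85, 9.10 and 9.23 in WT mice on vehicle. On vehicle the ranges met only at their edges, and all 7 R6/2 arrays lay below the WT mean, as all 8 did on HSP990. Aldh1l1 fell by 0.18 ± 0.07 on HSP990 (adjusted p = 0.0403, 1.13-fold) and by 0.36 ± 0.08 on vehicle (adjusted p = 0.000824, 1.29-fold). Its dim second probe set, 1424401_at, had changes of 0.02 ± 0.07 on HSP990 (adjusted p = 0.863) and -0.16 ± 0.08 on vehicle (adjusted p = 0.216). Taken as the mean of its probe sets, Aldh1l1 did not pass on HSP990 (-0.08, adjusted p = 0.267). Aldoc had 12.57, 12.87 and 13.10 in R6/2 mice on HSP990, against 12.92, 13.05 and 13.16 in WT mice on HSP990, and 12.70, 13.04 and 13.17 in R6/2 mice on vehicle, against 13.01, 13.18 and 13.23 in WT mice on vehicle. The changes were -0.19 ± 0.06 on HSP990 (adjusted p = 0.0267) and -0.18 ± 0.07 on vehicle (adjusted p = 0.0946), near in size though only the first passed. Its second probe set, 1424714_at, was the other way round, with -0.30 ± 0.15 on HSP990 (adjusted p = 0.151) and -0.53 ± 0.17 on vehicle (adjusted p = 0.0304). Taken as the mean of its probe sets, Aldoc did not pass on HSP990 (-0.24, adjusted p = 0.0579) and passed on vehicle (-0.35, adjusted p = 0.0208).

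Ntsr2, the neurotensin receptor, and Aldh1l1 were the genes that fell on both treatments by their brightest probe set. Ntsr2 had 10.30, 10.40 and 10.56 in R6/2 mice on HSP990, against 10.49, 10.90 and 11.00 in WT mice on HSP990, and 9.97, 10.53 and 11.04 in R6/2 mice on vehicle, against 10.59, 10.94 and 11.32 in WT mice on vehicle. On HSP990 the R6/2 arrays were tightly grouped (SD 0.09) and a single WT array, replicate 7, fell among them. On vehicle they were spread (SD 0.42) and 5 of 7 lay below the WT mean. The changes were -0.43 ± 0.11 on HSP990 (adjusted p = 0.00366, 1.35-fold lower) and -0.37 ± 0.13 on vehicle (adjusted p = 0.0425, 1.30-fold lower).

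S100b ran the other way. It had 10.41, 10.81 and 11.15 in R6/2 mice on HSP990, against 10.28, 10.43 and 10.82 in WT mice on HSP990, and 10.05, 10.74 and 11.24 in R6/2 mice on vehicle, against 10.13, 10.72 and 10.79 in WT mice on vehicle. On HSP990, 7 of 8 R6/2 arrays lay above the WT mean, and the gene rose by 0.36 ± 0.12 (adjusted p = 0.0214, 1.28-fold higher). On vehicle the change was 0.19 ± 0.13 (adjusted p = 0.396). Its second probe set, 1434342_at, had changes of 0.19 ± 0.10 on HSP990 (adjusted p = 0.176) and 0.27 ± 0.12 on vehicle (adjusted p = 0.126).

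Gfap gave no call and the widest intervals. It had 5.05, 6.29 and 6.63 in R6/2 mice on HSP990, against 5.50, 6.16 and 7.91 in WT mice on HSP990, and 4.77, 5.68 and 7.37 in R6/2 mice on vehicle, against 4.74, 6.15 and 6.94 in WT mice on vehicle. The groups overlapped over most of their range. The changes were -0.24 ± 0.34 on HSP990 (adjusted p = 0.678, 95% confidence interval -0.92 to 0.45) and -0.20 ± 0.38 on vehicle (adjusted p = 0.785, interval -0.98 to 0.57).

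Several of these calls lay near the threshold and were lost when 1 array was left out. The vehicle call of Ntsr2 was lost in 9 of the 32 fits that left out 1 array (R6/2 on vehicle replicates 1, 3, 4 and 6, and WT on vehicle replicates 1, 2, 3, 4 and 6), with adjusted p between 0.0107 and 0.128 over the 32 fits, whereas Aldh1l1 and Atp1b2 passed on vehicle in all 32. On HSP990, Slc1a3 and Ntsr2 passed in all 32, and Aldh1l1 was lost without R6/2 on HSP990 replicates 5, 7 or 8 or WT on HSP990 replicates 1, 2, 4 or 6 (adjusted p up to 0.0977). Slc1a2 was lost without R6/2 on HSP990 replicates 1, 3 or 5 or WT on HSP990 replicate 6 (up to 0.0729), Aldoc without R6/2 on HSP990 replicates 1 or 8 (up to 0.0822), Aqp4 without replicates 2 or 4 (up to 0.0621) and S100b without replicate 8 (0.0573).

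Other properties of the arrays moved with the genotype difference on HSP990. The 3′ bias of an array, averaged over the Gapdh and Actb control probe sets (3′ value less 5′ value), had a median of 1.46 in R6/2 mice on HSP990 (0.87 to 4.56), against 1.04 in WT mice on HSP990 (0.64 to 1.61), whereas on vehicle it was 1.07 in R6/2 mice (0.78 to 2.11), against 1.43 in WT mice (0.82 to 2.45). Within groups, 5 of the 32 probe sets tracked this bias, all downwards, at an adjusted p under 0.05 over 64 relations. The steepest was Slc1a3 1426341_at (r = -0.903, rho = -0.867, permutation p = 1e-05 for both, the smallest they can give, adjusted p = 0.00032, -0.837 without the 2 arrays farthest from the median). Aqp4 1425382_a_at followed (r = -0.860, rho = -0.852, permutation p = 1e-05 for both, adjusted p = 0.00032, -0.867 without the 2 farthest). The brightest Slc1a3 probe set also did so (r = -0.616, rho = -0.543, permutation p = 0.00024 and 0.00232, adjusted p = 0.00171, -0.535 without the 2 farthest).

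**Figure D3:**
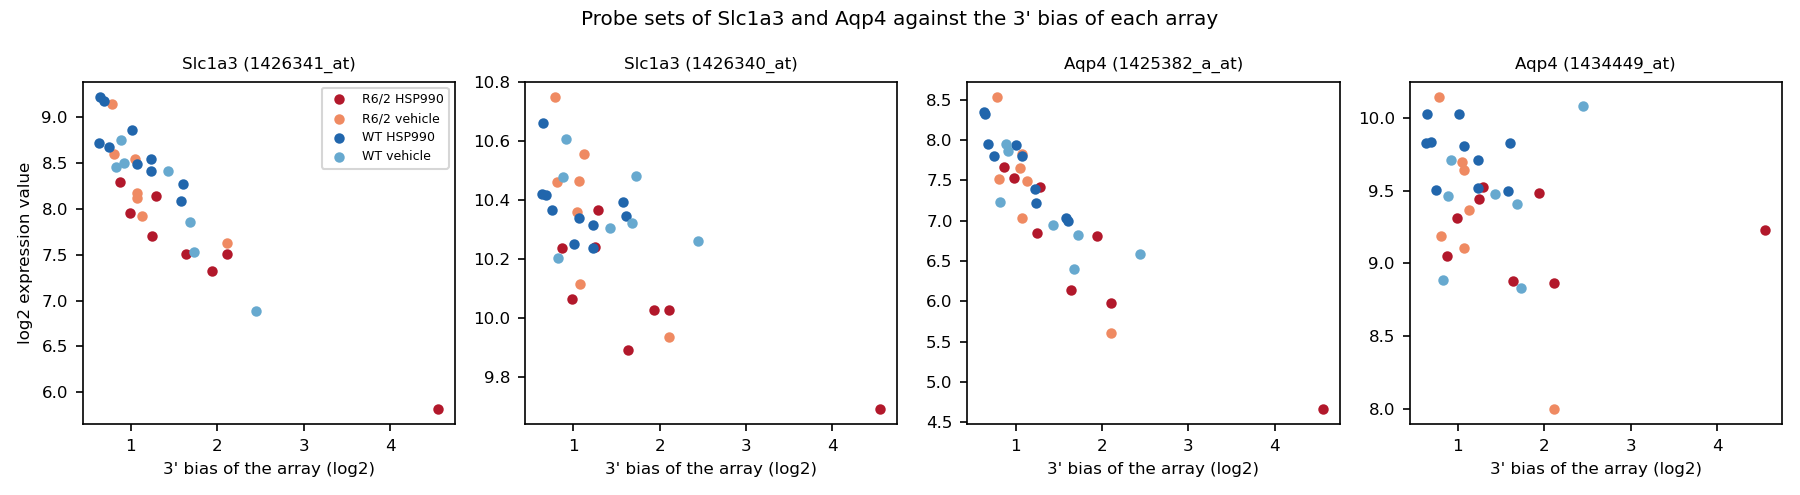
Log2 expression value (vertical axis) of 2 probe sets each of Slc1a3 and Aqp4 against the 3′ bias of the array in log2 units (horizontal axis); points are arrays coloured by group. Slc1a3 1426341_at and Aqp4 1425382_a_at fall along the whole range of bias, and the array at 4.56 is R6/2 on HSP990 replicate 5.

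With 3′ bias as a covariate, 2 of the 10 genes passed on HSP990, Ntsr2 (-0.39 ± 0.12, adjusted p = 0.0184) and Atp1b2 (-0.40 ± 0.12, adjusted p = 0.0169), and 6 of 32 probe sets fell and none rose. Over all features in that fit, 29.6% of genes passed (9.99% lower) and 24.3% of probe sets (10.5% lower), so the calls in either direction were no larger a share than over all features. The 6 included Slc1a2 1451627_a_at at -0.59 ± 0.11 (adjusted p = 0.000219), Slc1a2 1433094_at at -0.61 ± 0.16 (adjusted p = 0.00521), and Slc1a3 1426341_at, whose change shrank to -0.54 ± 0.13 (adjusted p = 0.0017), and 1443749_x_at. The brightest probe set of Slc1a3 had -0.18 ± 0.08 (adjusted p = 0.113) and that of Aqp4 -0.46 ± 0.20 (adjusted p = 0.0994). On vehicle the same 3 genes passed with this covariate and 6 probe sets fell (9.02% of all genes and 7.38% of all probe sets lower). Without R6/2 on HSP990 replicate 5, the most biased array, 13 probe sets fell and 1 rose on HSP990 (10.7% lower and 14.2% higher over all probe sets), all 6 of Slc1a3 still passing, with 1426341_at at -0.87 ± 0.22 (adjusted p = 0.0034).

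Markers of other cell types also differed between R6/2 and WT mice. Over all genes, 10.5% were lower in R6/2 mice on HSP990 and 8.71% on vehicle, and 21.7% were higher on HSP990 and 10.7% on vehicle. Of 12 myelin and oligodendrocyte markers, 8 were lower in R6/2 mice on HSP990 and 2 on vehicle; their mean log2 level had a median of 10.09 in R6/2 mice on HSP990 (9.57 to 10.25), against 10.52 in WT mice on HSP990 (9.94 to 10.80), and of 9.91 in R6/2 mice on vehicle (9.33 to 10.50), against 10.22 in WT mice on vehicle (9.93 to 10.54). None of the 12 lay below the array median. Within groups, Gja1 rose and fell with that myelin mean by 5 of its 6 probe sets (brightest r = 0.645, rho = 0.617, permutation p = 0.0004 and 0.00087, adjusted p = 0.00256, 0.603 without the 2 farthest arrays), and so did S100b 1434342_at (r = 0.709, rho = 0.742, permutation p = 4e-05 and 2e-05, adjusted p = 0.0008, 0.688 without the 2 farthest). With the myelin mean as a covariate, 2 of the 10 genes passed on HSP990, S100b higher and Slc1a2 lower, where 26.8% of all genes did (18.6% higher and 8.24% lower). Of the 32 probe sets 4 fell and 2 rose, where 9.25% of all probe sets fell and 12.8% rose, so the calls in either direction were again no larger a share than over all features. S100b rose by both of its probe sets, 0.59 ± 0.13 (1419383_at, adjusted p = 0.000876) and 0.47 ± 0.09 (1434342_at, adjusted p = 0.00033), and on vehicle 1434342_at rose by 0.38 ± 0.09 (adjusted p = 0.00285). Slc1a2 remained lower on HSP990 by 3 probe sets, with 1451627_a_at at -0.70 ± 0.13 (adjusted p = 0.000212) there and -0.57 ± 0.13 on vehicle (adjusted p = 0.00188). Slc1a3 then had -0.14 ± 0.10 on HSP990 (adjusted p = 0.364) and Aqp4 -0.23 ± 0.21 (adjusted p = 0.507). Of 13 microglial markers, 6 were lower in R6/2 mice on HSP990 and 3 on vehicle, with a mean log2 level of 7.31 to 7.94 in R6/2 mice on HSP990, against 7.90 to 8.16 in WT mice on HSP990. Of 12 pan-neuronal markers, 4 were lower and 2 higher on HSP990, and 3 lower and 1 higher on vehicle. Of 8 oligodendrocyte precursor markers, 1 was lower and 2 higher on HSP990, and none passed on vehicle. Of 9 neural progenitor markers, 2 were lower and 3 higher on HSP990, and 1 higher on vehicle. None of 13 choroid plexus and ependymal markers passed, with a median change of -0.06 on HSP990 and -0.71 on vehicle. The part of these cell types in the astrocyte gene differences was not tested beyond the covariate fits.

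HSP990 itself left the 10 genes without a call 4 h after the dose. In R6/2 mice none of the 10 genes and none of the 32 probe sets passed in limma, where 2.93% of all genes and 2.81% of all probe sets did, and 1 gene and 5 probe sets had an unadjusted p under 0.05. In WT mice none of the 10 genes and none of the 32 probe sets passed, where 5.38% of all genes and 4.63% of all probe sets did, and 0 genes and 4 probe sets had an unadjusted p under 0.05. The median change of the 10 genes was -0.10 in R6/2 and -0.02 in WT mice, where that of all genes was 0.02 in R6/2 and -0.03 in WT mice. No gene had treated and vehicle arrays fully apart, in R6/2 mice (0.17% of genes apart and lower, 0.5% apart and higher) or in WT mice (0.742% and 0.731%).

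The nearest to a call was Slc1a3 in R6/2 mice. Its brightest probe set had 9.70, 10.05 and 10.36 in R6/2 mice on HSP990, against 9.94, 10.46 and 10.75 in R6/2 mice on vehicle, with overlapping ranges and a change of -0.31 ± 0.10 (adjusted p = 0.0862). Probe set 1443749_x_at gave -0.25 ± 0.08 (adjusted p = 0.0868). In WT mice the brightest had a change of -0.0047 ± 0.09 (adjusted p = 0.989). Slc1a2 had a change of -0.32 ± 0.17 in R6/2 and 0.01 ± 0.16 in WT mice, and Aqp4 one of -0.08 ± 0.20 in R6/2 and 0.35 ± 0.19 in WT mice, none of which passed. Over the 10 genes the 95% confidence intervals spanned -0.67 to 0.97 in R6/2 and -0.45 to 0.97 in WT mice, the upper ends being those of Gfap, so that a response of the size of Hspb1 (2.63 ± 0.12 in R6/2 and 2.75 ± 0.12 in WT mice, adjusted p = 5.66e-16 and 1.88e-17) lay outside all of them.

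**Figure D4:**
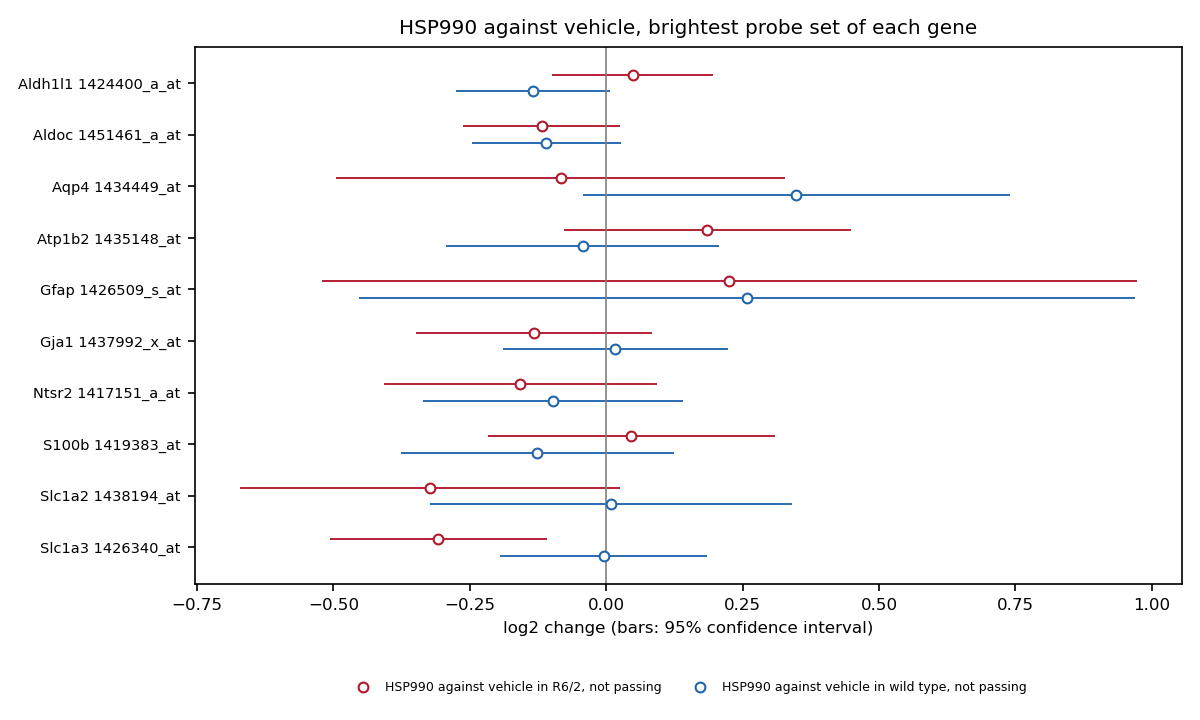
Log2 change between HSP990 and vehicle (horizontal axis) for the brightest probe set of each of the 10 genes (rows), in R6/2 mice (red) and WT mice (blue); bars are 95% confidence intervals and open points did not pass an adjusted p of 0.05. All points are open, and the intervals of Gfap reach 0.97 in both genotypes.

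The genotype by treatment interaction, which asks whether HSP990 acted differently in R6/2 than in WT mice, passed for none of the 10 genes and none of the 32 probe sets in limma, where 0.253% of all genes and 0.271% of all probe sets passed. 1 gene (Slc1a3) and 4 probe sets had an unadjusted p under 0.05. The largest estimate was that of Slc1a3 1426341_at (-1.37 ± 0.39, adjusted p = 0.118), the probe set that tracked 3′ bias most closely. The genes called on HSP990 and not on vehicle are therefore not shown to differ between the treatments.

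The 10 genes varied together from array to array only in part. After removal of the group means, 33 of 45 gene pairs had a positive correlation over the 32 arrays, with a median r of 0.143 and a range of -0.301 to 0.698. A single pair passed after adjustment over the 45, Atp1b2 with Gfap (r = 0.698, rho = 0.702, permutation p = 7e-05 for each, adjusted p = 0.00315 for each, r = 0.663 without the 2 farthest arrays). Aqp4 with Gja1 came next (r = 0.603, rho = 0.427, permutation p = 0.00315 and 0.031, adjusted p = 0.0529, 0.405 without the 2 farthest). By their brightest probe sets, S100b and Slc1a2 had an r of -0.121 and -0.141 against the mean of the other 9 genes. Gfap had 0.621, Atp1b2 0.552 and Gja1 0.550. For Slc1a2 the value holds for 1438194_at only. Within groups 1439940_at ran against that probe set (r = -0.485) and 1451627_a_at ran with it (r = 0.620). Other probe sets of Slc1a2 were not set against the other genes. With 3′ bias removed as well, the same number of pairs, 33, was positive and the highest r was 0.671.

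**Figure D5:**
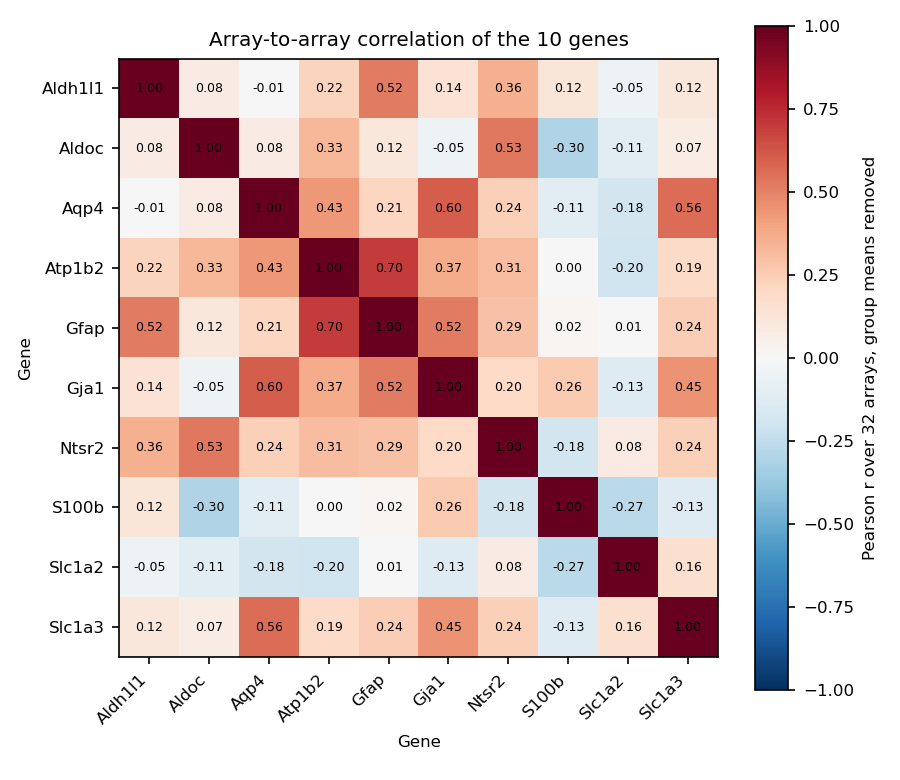
Pearson r between the 10 genes, each by its brightest probe set, over 32 arrays with group means removed. The colour scale runs from -1 to 1 with the value in each cell (rows and columns are genes). The strongest cell is Atp1b2 with Gfap at 0.70, and the rows of S100b and Slc1a2 are mostly pale or blue.

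Outside the set, the genes most like the mean of the 10 over the 32 arrays, group means removed, were Thbs4 (r = 0.749), a thrombospondin, and Igfbp5 (r = 0.706), a binding protein of insulin-like growth factors. Cyth1, Csf1, Lgi3, Map4, Ddo, Adhfe1, Cpm and Slc22a4 followed, at r between 0.678 and 0.701. They were ranked from all named genes by this measure, so their r is a description. Of these 10, Igfbp5 was lower in R6/2 mice on HSP990 (-1.19 ± 0.20, adjusted p = 2.1e-05) and on vehicle (-0.84 ± 0.22, adjusted p = 0.00893), and Cpm on HSP990 (-0.64 ± 0.15, adjusted p = 0.00112); the other 8 did not pass in either genotype comparison.

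9 further lists, drawn up around astrocyte functions and markers, held 149 genes, of which 141 were measured. Whether each gene is enriched in astrocytes was not tested, and bulk tissue does not show which cells made the RNA. In R6/2 mice on HSP990, 35 of these were lower and 9 higher than in WT mice (24.8% and 6.38%), and on vehicle 24 were lower and 6 higher (17% and 4.26%). Over all genes, 10.5% were lower and 21.7% higher on HSP990, and 8.71% lower and 10.7% higher on vehicle. The genotype counts of each list below stand against these shares. Their median change was -0.13 on HSP990 and -0.11 on vehicle.

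Transporters and endfoot genes were compared between R6/2 and WT mice within each treatment. In the potassium, water, bicarbonate and endfoot list, 5 of 11 were lower in R6/2 mice on HSP990 and 3 of 11 on vehicle, none being higher. The thyroid hormone carrier Slco1c1 fell by 0.46 ± 0.11 on HSP990 (adjusted p = 0.00153) and by 0.40 ± 0.12 on vehicle (adjusted p = 0.0244), and the inwardly rectifying potassium channel Kcnj10 by 0.30 ± 0.10 on vehicle (adjusted p = 0.0416). Of 10 genes for glutamate, GABA and glutamine handling, 3 fell on HSP990 and 2 on vehicle, with the glutamine transporter Slc38a3 lower on both (-0.38 ± 0.12, adjusted p = 0.0216, on HSP990 and -0.41 ± 0.14, adjusted p = 0.0422, on vehicle). In the gap junction and adhesion list of 8, Mfge8, a secreted bridge for phagocytosis, fell on both treatments, while the cadherin Fat1 rose on both (0.46 ± 0.12, adjusted p = 0.00329, on HSP990 and 0.44 ± 0.13, adjusted p = 0.0226, on vehicle).

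Receptors and secreted factors were again compared between R6/2 and WT mice within each treatment. Of all genes in the astrocyte lists, Grm3 had the smallest adjusted p on both treatments. The metabotropic glutamate receptor Grm3 fell by 0.89 ± 0.08 on HSP990 (adjusted p = 6.33e-10) and by 0.79 ± 0.09 on vehicle (adjusted p = 2.58e-07), and the lipid receptor S1pr1 by 0.75 ± 0.11 on HSP990 (adjusted p = 3.33e-06) and by 0.45 ± 0.13 on vehicle (adjusted p = 0.0124). In all, 5 of 14 receptor and signalling genes fell and 1 rose on HSP990, and 2 fell on vehicle. The matrix proteoglycans Ncan (-0.55 ± 0.09, adjusted p = 1.1e-05) and Bcan (-0.34 ± 0.07, adjusted p = 0.000513) fell on HSP990, and both also fell on vehicle, where they had -0.39 ± 0.10 (adjusted p = 0.00578) and -0.32 ± 0.08 (adjusted p = 0.00631). They were among 3 of 15 secreted and synapse-organising genes that fell on HSP990 and 3 on vehicle, while 2 rose on HSP990 and 1, the thrombospondin Thbs2, on vehicle.

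Metabolic genes and transcription factors showed the same mixture between R6/2 and WT mice on the same treatment. Of 26 metabolic genes, 7 were lower and 1 higher in R6/2 than in WT mice on HSP990, and 6 were lower on vehicle. The gene higher on HSP990 was Slc25a18 (0.91 ± 0.20, adjusted p = 0.000784). Dio2, the deiodinase that activates thyroid hormone, was lower in R6/2 mice by 1.18 ± 0.18 on HSP990 (adjusted p = 5.36e-06) and by 1.17 ± 0.20 on vehicle (adjusted p = 0.000102). Of 15 transcription factors, 6 fell and 1 rose on HSP990, and 2 fell and 1 rose on vehicle. Sox2 was the factor that rose on vehicle (0.45 ± 0.09, adjusted p = 0.000319). Id4, an inhibitor of basic helix-loop-helix factors, fell by 0.92 ± 0.12 on HSP990 (adjusted p = 5.45e-07) and by 0.77 ± 0.14 on vehicle (adjusted p = 0.000141), and Gli3, a hedgehog pathway factor, by 0.83 ± 0.11 on HSP990 (adjusted p = 6.84e-07) and by 0.52 ± 0.12 on vehicle (adjusted p = 0.0039). Among 16 genes of a further astrocyte list, 4 fell on HSP990, and 4 fell and 1 rose on vehicle. Slc15a2 was the gene that rose (0.49 ± 0.16, adjusted p = 0.0361). The membrane protein gene Ttyh1 had -0.56 ± 0.08 on HSP990 (adjusted p = 9.6e-07) and -0.55 ± 0.09 on vehicle (adjusted p = 2.09e-05).

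Reactive astrocyte and intermediate filament genes gave few calls between R6/2 and WT mice on the same treatment. Of 27 measured, 3 rose and none fell on HSP990, and 2 rose and 1 fell on vehicle, where 21.7% of all genes rose and 10.5% fell on HSP990 and 10.7% rose and 8.71% fell on vehicle. The lipid receptor S1pr3 rose by 0.90 ± 0.12 on HSP990 (adjusted p = 6.06e-07) and by 0.55 ± 0.14 on vehicle (adjusted p = 0.00444), and the intermediate filament Vim by 0.47 ± 0.13 on HSP990 (adjusted p = 0.00574) and by 0.50 ± 0.14 on vehicle (adjusted p = 0.0149). Serping1, a complement inhibitor, rose on HSP990, and the adhesion receptor Cd44 fell on vehicle. S1pr3 and Vim are also made by vascular cells. Of 13 endothelial and mural markers, 1 was lower and none higher in R6/2 mice on each treatment, and the part of these cells in the S1pr3 and Vim values was not tested.

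HSP990 against vehicle left none of the 141 genes higher and 4 lower (2.84%) in R6/2 mice. In WT mice 6 were higher (4.26%) and 8 lower (5.67%). Over all genes, 2.06% were higher and 0.868% lower in R6/2 mice, and 2.09% higher and 3.28% lower in WT mice. Apart from the genes higher in R6/2 mice, the shares in the lists were thus larger than over all genes. The lists were chosen with earlier results known, so this describes them and is no test. In R6/2 mice the 4 were Id1 (-0.74 ± 0.18, adjusted p = 0.0168), Htra1 (-0.44 ± 0.12, adjusted p = 0.0389), Notch1 (-0.25 ± 0.07, adjusted p = 0.0381) and Glul, the glutamine synthetase gene (-0.24 ± 0.07, adjusted p = 0.0498). In WT mice the transcription factors Sox9 (0.68 ± 0.11, adjusted p = 0.000213) and Sox2 (0.41 ± 0.08, adjusted p = 0.00111) rose, while the Notch target Hes5 (-0.76 ± 0.14, adjusted p = 0.000487), Notch1 (-0.38 ± 0.06, adjusted p = 0.000317) and the protease Htra1 (-0.64 ± 0.11, adjusted p = 0.000503) fell. None of the 141 passed the interaction test in limma, and 17 had an unadjusted p under 0.05, so these responses are not shown to differ between genotypes.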

How the data were processed

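Total RNA from mouse striatum was hybridised to 32 Affymetrix arrays in 4 genotype by treatment groups. The authors deposited log2 expression values, 1 per probe set and array, and per the labels' design text they checked array quality with the RACE package; the normalization method and software versions are not given in the sources used here. All 45101 probe sets were read, and 64 control probe sets were left out. Of the remaining 45037, 34945 had a single gene symbol in the platform annotation, 932 had several and 9160 had none; symbols were updated through RefSeq gene IDs. A gene was taken as its brightest probe set over all arrays.

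Groups were compared with limma 3.58.1 in R 4.3.3, in a single fit of all 4 groups with moderated variances, and p-values were adjusted by the Benjamini-Hochberg method over all probe sets, with a threshold of 0.05. The fit was tested on simulated data. Array-to-array correlations used residuals from group means and 1e+05 two-sided permutations within groups. The number of arrays limits the precision.

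The 10 genes, the gene lists and the tests were chosen with earlier results of these data known. The genes named were the 10 with all their probe sets, from each other list at most 4 called genes with the smallest p per comparison (all where 1 to 5 were called), the 10 genes most alike, and Htt, Hspa1b, Hspb1 and Dnajb1 as checks. Alternatives covered quantile and median scaling, a filter on dim probe sets, other gene summaries, array weights, moderation, the groups compared alone, a replicate block, covariates for 3′ bias, myelin and choroid plexus markers and the leading residual component, and leaving out arrays.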

Additional observations from a re-analysis of the deposited data

Results flagged for a closer look

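Within groups, an array was picked out where its gap to the nearest other array took up an unusually large part of the group's range (Dixon's criterion). This happened in 11 of 128 group tests of the 32 probe sets (8.59%), where chance flags about 1 in 20 groups. All values are log2, and no cause was tested.

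In R6/2 mice on HSP990, replicate 5, the array with the strongest 3′ bias, had 5.82 for Slc1a3 1426341_at, where the other 7 arrays lay between 7.32 and 8.29. Replicate 4 had 4.23 for the dim Atp1b2 probe set 1422009_at, where the others lay between 4.50 and 4.67. In R6/2 mice on vehicle, replicate 1 had 9.06 for Slc1a3 1452031_at (others 9.95 to 10.31) and 4.36 for Atp1b2 1422009_at (others 4.52 to 4.63), and replicate 7 had 7.33 for Slc1a2 1451627_a_at (others 6.46 to 6.75).

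In WT mice on HSP990, replicate 2 had 7.91 for Gfap 1426509_s_at (others 5.50 to 6.50), replicate 5 had 10.99 for Atp1b2 1435148_at (others 10.55 to 10.76), replicate 6 had 10.66 for Slc1a3 1426340_at (others 10.24 to 10.42), and replicate 7 had 10.49 for Ntsr2 1417151_a_at (others 10.76 to 11.00). In WT mice on vehicle, replicate 4 had 13.01 for Aldoc 1451461_a_at (others 13.16 to 13.23), and replicate 6 had 6.14 for the dim Slc1a2 probe set 1459014_at (others 3.76 to 4.74).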

How the results depend on the processing

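Of the 10 genes, 7 passed between R6/2 and WT mice on HSP990. 2 passed with 3′ bias as a covariate and 2 with the myelin mean as a covariate; over the other alternatives the count reached at most 8, and it ran from 4 (without R6/2 on HSP990 replicate 8) to 8 when 1 array was left out. On vehicle 3 passed, 5 with the mean of a gene's probe sets (Aldoc at adjusted p = 0.0208 and Slc1a2 at 0.00908 were added), and 2 to 4 when 1 array was left out. For HSP990 against vehicle in R6/2 mice the count of 0 became 1 with the leading residual component as a covariate (Slc1a3, adjusted p = 0.0181) and ran from 0 to 1 when 1 array was left out (Slc1a3 without R6/2 on vehicle replicate 1, adjusted p = 0.0133). In WT mice and for the interaction it was 0 in every fit run. The causes were not tested.

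No called change turned its direction in 2293 recomputed values of 50 results; 47 lost and 20 gained a call, and 90 uncalled estimates changed sign. Aldh1l1 and Atp1b2 passed on vehicle in all 14 alternatives (adjusted p up to 0.00522 and 0.048), and Ntsr2 in 10 of them. It was lost with the replicate block (0.0618), with only the groups compared (0.184), and with the choroid plexus (0.0863) or myelin (0.0842) covariate. On HSP990, Ntsr2 and Slc1a2 passed in 13 of 14, Slc1a3 and S100b in 12, Aqp4 and Aldoc in 11, and Aldh1l1 in 8. Same-numbered arrays showed little shared deviation (r over 0.1 in 16 of 42 pairs, median 0.0197, range -0.306 to 0.404). That check cannot exclude that replicate numbers pair arrays or share a batch. Under the replicate block Aqp4 (0.0511) and S100b (0.0619) also lost their call on HSP990. Quantile and median scaling moved the median of all genes by under 0.1.

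Over all probe sets the alternatives called 463 to 2820 for HSP990 in R6/2 mice (1267 in the main setting), 1463 to 3883 in WT mice (2087), 9926 to 14361 between genotypes on HSP990 (12261), 4657 to 9253 on vehicle (6795) and 37 to 1786 for the interaction (122). Dim probe sets, such as 2 of the 3 of Gfap, limit what small changes can be seen.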

Other observations

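Of 5 neuronal and other glutamate transporters measured, 1 was higher and 1 lower in R6/2 mice on HSP990, and 1 was higher on vehicle. Over all genes, 21.7% were higher and 10.5% lower on HSP990, and 10.7% higher on vehicle. Slc1a6, a transporter best known from cerebellar Purkinje cells, was higher in R6/2 than in WT mice on HSP990 (1.10 ± 0.23, adjusted p = 0.000382) and on vehicle (0.96 ± 0.26, adjusted p = 0.00945), and the neuronal transporter Slc1a1 was lower on HSP990 (-0.25 ± 0.08, adjusted p = 0.0227). None of the 5 passed in limma for HSP990 against vehicle in R6/2 or WT mice, and 0 had an unadjusted p under 0.05 in either genotype.

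A list of relatives of the 10 genes, mostly S100, sodium pump, connexin, aquaporin and aldolase genes, had 15 measured. In R6/2 mice 2 were higher and none lower on HSP990, and 1 was higher and 2 lower on vehicle. Over all genes, 21.7% were higher and 10.5% lower on HSP990, and 10.7% higher and 8.71% lower on vehicle. The intracellular aquaporin Aqp11 was higher on HSP990 (0.67 ± 0.18, adjusted p = 0.00383) and on vehicle (0.63 ± 0.20, adjusted p = 0.0275). The aldolase Aldoa was higher on HSP990 (0.16 ± 0.04, adjusted p = 0.00547). On vehicle the vascular connexin Gja4 (-0.40 ± 0.09, adjusted p = 0.00221) and S100a1 (-0.47 ± 0.17, adjusted p = 0.0492) were lower in R6/2 mice. With HSP990, Gja4 was the only gene of this list to fall in WT mice (-0.38 ± 0.08, adjusted p = 0.00453), where 3.28% of all genes fell.

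Over the 10 astrocyte genes, the mean deviation from the group mean, in SD units, was lowest on R6/2 on vehicle replicate 1 (-1.28) and highest on R6/2 on vehicle replicate 7 (1.10).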
